A study of Mus musculus with 4 samples.

Results

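Neurofilament and axonal cytoskeleton genes were examined in 3 mouse cell lines profiled in 1 CapSeq single-cell library. The 10 genes were Nefl, Nefm, Nefh, Ina, Prph, Map1b, Map2, Mapt, Dcx and Gap43, taken by symbol from the 33565 genes of the count matrices. They were counted in cells with at least 1000 unique molecular identifiers (UMIs) and at most 20% mitochondrial UMIs. Nefl, Nefm and Nefh encode the light, medium and heavy neurofilament subunits, and Ina and Prph encode alpha-internexin and peripherin. These proteins assemble into the neuronal intermediate filaments that fill axons and help set their caliber. Map1b, Map2, Mapt (tau) and Dcx (doublecortin) encode proteins that bind and stabilize microtubules, and Gap43 encodes a membrane protein of growth cones. In neurons the set is known for its stepwise use, with Map1b, Ina, Prph and Gap43 prominent during neurite growth and Nefh in mature axons.

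N2a (Neuro-2a) is a mouse neuroblastoma line and NIH/3T3 a mouse embryonic fibroblast line, and both were kept in DMEM with FBS. The mouse embryonic stem cells (mESCs) were E14TG2a cells grown on gelatin, also in DMEM with FBS. Their medium held leukemia inhibitory factor, CHIR99021 and PD0325901, conditions that hold them undifferentiated. The labels name no differentiation agent for any line. Each line filled 32 of the 96 sequences of the opening barcode segment (BC1), and the lines were then mixed, barcoded and sequenced as 1 library. Since a line had a single library, differences between lines could not be tested and are given without p-values. Intervals are 95% exact Poisson intervals for levels and 95% exact binomial intervals for shares, and they cover counting error only. The BC1 sequences of a line are parts of 1 labelled sample and not replicates of the line. Their lowest, median and highest values show the technical spread.

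The filter kept 2323 N2a cells, 2037 NIH/3T3 cells and 2137 mESCs, with medians of 6185, 4863 and 4803 UMIs per cell. Levels are counts per 1000000 UMIs (CPM), summed over the cells of a line. In the same order of lines, a single UMI corresponded to 0.0557, 0.0855 and 0.0812 CPM, and the floor for a count of 0, set at 3 counts, was 0.167, 0.256 and 0.243 CPM. No barcode held UMIs in more than 1 line (0 barcodes), as the split by BC1 ensures. The labelled lines carried most of their defining markers. Hand2, a sympathoadrenal transcription factor, had 404 CPM in N2a, against 1.79 CPM in mESCs and 1.11 CPM in NIH/3T3. Prrx1, a mesenchymal factor, was at 622 CPM in NIH/3T3, and Zfp42, a marker of naive pluripotency, was at 1318 CPM in mESCs. Some defining genes were counted at or near 0, with Dbh at 0.891 CPM in N2a, Postn at 0 in NIH/3T3 and Sox2 at 0 in mESCs. Whether these low counts come from the cells or from how reads were counted was not tested. The level of a line's markers in the other lines is given as a background for low values. For the 5 N2a markers of at least 50 CPM in N2a, the level in NIH/3T3 was 0.123% to 4.00% of that in N2a (median 0.275%). In mESCs it was 0.442% (Hand2) to 16.4% (Tubb3), with a median of 2.43%. The 5 NIH/3T3 markers of that level had a median in mESCs of 0.194% of their own line's value. Their range there ran from 0.0439% (Lox) to 156% (Fn1), and in N2a from 0.0805% (Prrx1) to 27.5% (Fn1). Whether mESCs transcribe some of these markers themselves was not tested.

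Most members were highest in N2a, by a rule of size applied to all genes. The rule asked for at least 5 CPM in 1 line, a CPM + 1 at least 2 times that in each of the other lines, and a Poisson interval that overlapped neither. N2a was called for 6 of the 9 members compared (Nefh, Ina, Prph, Map1b, Map2 and Gap43), against 11.3% of the 13000 genes compared. NIH/3T3 was called for 0 members, against 10.5% of genes. The mESCs were called for 2 members (Nefl and Nefm), against 13.0% of genes. Mapt was compared and met the rule in no line, and Dcx was too low in all lines to be compared. A gene that passed the 5 CPM limit in a single line had to differ between lines, so these counts describe the members and are not support for a pattern.

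**Figure D1:**
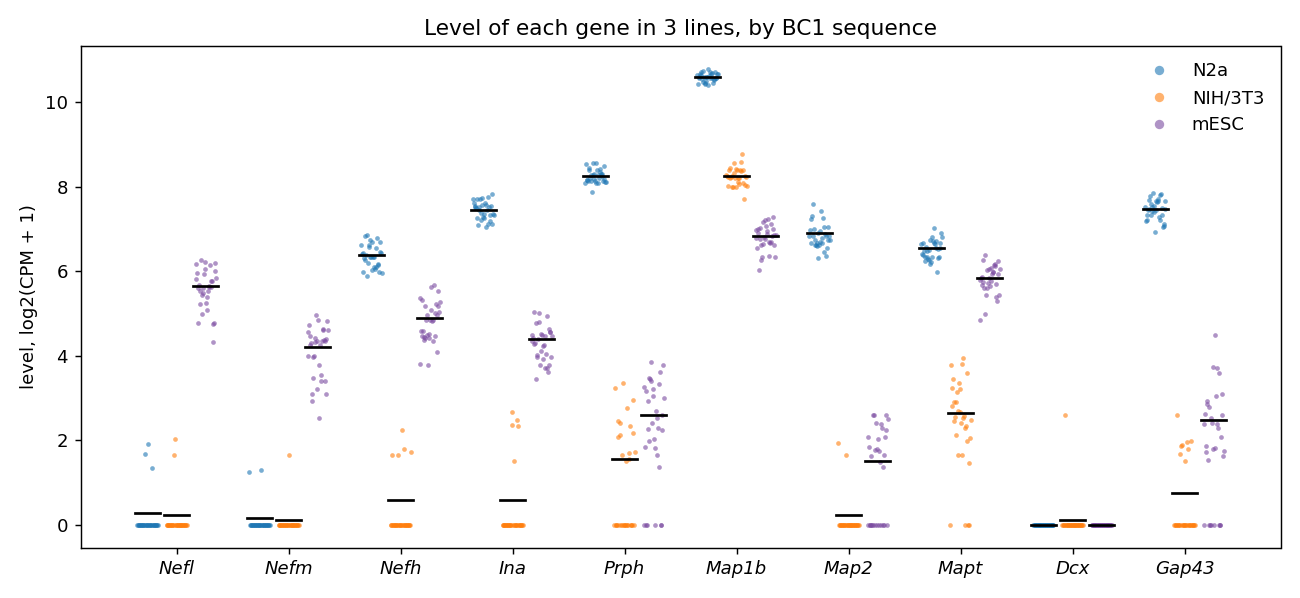
Level of each of the 10 genes as log2(CPM + 1), where each point is 1 of the 32 BC1 sequences of a line and each black bar is the level over all cells of that line. Nefl and Nefm lie at or near 0 in N2a and above 2 in every mESC point, whereas Map2, Prph and Gap43 are higher in every N2a point than in any mESC point, and the N2a and mESC points of Mapt overlap.

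Positions are given on GRCm39 from GENCODE M39. Nefl (ENSMUSG00000022055) lies at chr14:68321268-68326544 on the plus strand, and Nefm (ENSMUSG00000022054) at chr14:68320039-68362305 on the minus strand. The annotated span of Nefm covers Nefl, although the canonical transcripts of the pair are 30.2 kb apart. An annotated Nefm exon overlaps exon 1 of the 4 Nefl exons, over 1152 bases. Whether GENCODE M30, the release used for counting, holds that exon was not checked. Whether the counting used strand is not given in the sources used here. If M30 holds the exon, reads from that overlap cannot be assigned with certainty to either gene. Nefh (ENSMUSG00000020396, chr11:4888740-4898130, minus) overlaps Ap1b1, and Ina (ENSMUSG00000034336, chr19:47003069-47013770, plus) overlaps Nt5c2, each on the opposite strand. Prph (ENSMUSG00000023484) lies at chr15:98952872-98956862 on the plus strand with no overlapping gene. Map1b (ENSMUSG00000052727, chr13:99557954-99653137, minus), Map2 (ENSMUSG00000015222, chr1:66214327-66481746, plus) and Mapt (ENSMUSG00000018411, chr11:104122024-104222946, plus) are long genes that hold small or noncoding genes. Dcx (ENSMUSG00000031285) lies at chrX:142638838-142716307 and Gap43 (ENSMUSG00000047261) at chr16:42068805-42161086, both on the minus strand.

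Promoter sequences from RefSeq (GRCm38.p6) were found for 5 of the 10 members and are shown as the 150 bases before the start of each gene, 5′ to 3′ on the gene's strand. All but that of Dcx belong to genes called highest in N2a, and Dcx was the member with the fewest UMIs. Nefl, Nefm, Nefh, Mapt and Gap43 had no entry. Capitals mark TATAAA (the TATA box core) and GGGCGG (the GC box, bound by Sp1-family factors), each searched on both strands, so that a GC box on the other strand reads CCGCCC.
Ina: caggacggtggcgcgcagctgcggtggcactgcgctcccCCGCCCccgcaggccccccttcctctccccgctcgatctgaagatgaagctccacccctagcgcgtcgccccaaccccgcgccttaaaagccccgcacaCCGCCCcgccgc
Prph: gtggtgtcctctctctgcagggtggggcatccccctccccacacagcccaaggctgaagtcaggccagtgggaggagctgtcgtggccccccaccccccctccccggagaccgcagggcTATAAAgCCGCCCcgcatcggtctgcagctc
Map1b: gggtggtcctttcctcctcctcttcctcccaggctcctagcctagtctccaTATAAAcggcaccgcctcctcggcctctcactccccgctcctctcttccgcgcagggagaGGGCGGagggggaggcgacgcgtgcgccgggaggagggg
Map2: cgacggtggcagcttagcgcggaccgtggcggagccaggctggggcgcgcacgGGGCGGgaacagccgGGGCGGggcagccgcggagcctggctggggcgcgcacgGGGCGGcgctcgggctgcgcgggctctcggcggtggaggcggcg
Dcx: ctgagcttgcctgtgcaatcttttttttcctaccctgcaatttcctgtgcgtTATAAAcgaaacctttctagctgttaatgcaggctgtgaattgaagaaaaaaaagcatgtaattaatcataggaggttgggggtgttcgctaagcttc
The windows are chr19:47014531-47014680 (Ina, plus), chr15:99055024-99055173 (Prph, plus), chr13:99516603-99516752 (Map1b, minus), chr1:66175179-66175328 (Map2, plus) and chrX:143933220-143933369 (Dcx, minus, the opening entry of 2). TATAAA was in the windows of Prph, Map1b and Dcx, against 7.57% of all 32851 promoters of the table. In Prph it began 31 bases before the start, the usual place of a TATA box, and in Map1b and Dcx it began 99 and 98 bases before. GGGCGG was in the windows of Ina (2 matches), Prph (1), Map1b (1) and Map2 (3) and in 28.6% of all promoters. The window of Dcx held no GC box and was 40.7% G and C, against 68.7% to 82.7% in the other windows. An E-box (CANNTG) was found in Ina only, among these windows, and in 47.7% of all promoters. A match describes the letters of the window and was not tested as a site of regulation.

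Nefl and Nefm, whose products copolymerize with the other subunits, were the members found in mESCs and almost absent from N2a. Nefl had 4 UMIs in N2a (0.223 CPM), 2 UMIs in NIH/3T3 (0.171 CPM) and 608 UMIs in mESCs (49.3 CPM, interval 45.5 to 53.4). Over the BC1 sequences of mESCs, Nefl ranged from 19.2 to 76.4 CPM with a median of 48.5, while 29 of the 32 in N2a were at 0. The mESC values were all above those of both other lines. The ratio of mESCs to N2a was 221 (interval 86.1 to 816). Nefm had 2 UMIs in N2a (0.111 CPM), 1 UMI in NIH/3T3 (0.0855 CPM) and 214 UMIs in mESCs (17.4 CPM, interval 15.1 to 19.9). The mESC values of Nefm by BC1 sequence ran from 4.74 to 30.0 CPM, with a median of 19.0, again above all values of the other lines. The ratio to N2a was 156 (interval 42.6 to 1296).

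The mESC signal of Nefl was spread over many cells. At least 1 Nefl UMI was present in 445 mESCs (20.8%, interval 19.1% to 22.6%), and no mESC held more than 5. A spread of the same UMIs by depth alone would give 23.4% of cells. After each cell was thinned to 1000 UMIs, Nefl was detected in 4.45% of mESCs (interval 3.61% to 5.41%), in 0.0430% of N2a cells and in 0 of 2037 NIH/3T3 cells, which allows a share of up to 0.147% by the floor of 3 counts. Nefm was detected in 177 mESCs (8.28%) before thinning and in 1.64% after it. Among thinned NIH/3T3 cells, 0 held a Nefm UMI. Whether the few unthinned UMIs of Nefl and Nefm in the fibroblasts are background was not tested.

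Markers of other cell types are given beside these levels, since the labels name mESCs alone. Of 8 neural progenitor markers, Sox1, Neurod1 and Fabp7 were at 0 in mESCs, and the summed level of the list was 29.8 CPM, against 111 CPM in N2a and 6.84 CPM in NIH/3T3. Within that list, Otx2 was at 6.74 CPM in mESCs and Msi1 at 17.4 CPM. Of 8 glial markers, 4 were at 0 in mESCs, and the sum was 26.2 CPM, most of it Mbp at 21.9 CPM. The 12 N2a markers summed to 75.1 CPM in mESCs and 1207 CPM in N2a. Their part in the Nefl and Nefm levels was not tested.

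The mESCs with Nefl UMIs also carried more Nefm. Among mESCs with at least 3000 UMIs, 409 had a Nefl UMI and 1165 had none, a split chosen after the values were seen. Nefm was at 27.3 CPM in cells with Nefl and 13.5 CPM in cells without it, a ratio of 2.02 (interval 1.51 to 2.697). Nefh differed less, at 32.4 against 27.0 CPM (ratio 1.20, interval 0.948 to 1.52), and Map1b was slightly lower, at 101 against 117 CPM (ratio 0.860, interval 0.758 to 0.973). Mapt was at 59.4 against 54.8 CPM (ratio 1.08, interval 0.913 to 1.28). Zfp42 was at 1343 CPM with Nefl and 1306 CPM without it. The cells with Nefl were deeper, with a median of 7477 UMIs against 5507. The overlap of the annotated pair noted above, not checked in the release used for counting, would apply to Nefl and Nefm together. Only 14 mESCs of this depth lacked Zfp42 UMIs, and they held 0 Nefl, 1 Nefm and 4 Ina UMIs, too few for a comparison.

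Nefh, the heavy subunit with the long phosphorylated tail, had the opposite order to its partners. Nefh was at 82.7 CPM in N2a (interval 78.6 to 87.0, 1485 UMIs), 28.7 CPM in mESCs (interval 25.8 to 31.9, 354 UMIs) and 0.513 CPM in NIH/3T3 (6 UMIs). By BC1 sequence it ran from 58.3 to 115 CPM in N2a, with a median of 80.3, and from 12.9 to 50.2 CPM in mESCs, with a median of 27.6. The N2a and mESC values did not overlap. The ratio of N2a to mESCs was 2.88 (interval 2.56 to 3.24), the smallest ratio to the next line among the members called. After thinning, 8.61% of N2a cells (interval 7.50% to 9.82%), 2.62% of mESCs (interval 1.99% to 3.39%) and 0.147% of NIH/3T3 cells held a Nefh UMI. N2a thus carried transcripts of the heavy subunit with 4 UMIs of the light and 2 of the medium subunit in 2323 cells.

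Ina and Prph, which can form filaments without the triplet, were the abundant neuronal intermediate filament transcripts of N2a. Ina was at 175 CPM in N2a (interval 169 to 181, 3136 UMIs), 19.96 CPM in mESCs (interval 17.5 to 22.6, 246 UMIs) and 0.513 CPM in NIH/3T3 (6 UMIs). The BC1 sequences ran from 131 to 226 CPM in N2a and from 9.91 to 31.9 CPM in mESCs, with medians of 177 and 19.1. These ranges did not overlap, and the ratio of N2a to mESCs was 8.75 (interval 7.68 to 10.0). Prph was at 305 CPM in N2a (interval 297 to 313, 5473 UMIs), with 235 to 376 CPM by BC1 sequence. It was at 5.03 CPM in mESCs (62 UMIs) and 1.97 CPM in NIH/3T3 (23 UMIs). The ratio of N2a to mESCs was 60.6 (interval 47.2 to 79.1). Prph was detected in 75.9% of N2a cells, 2.71% of mESCs and 1.13% of NIH/3T3 cells, and after thinning in 25.4%, 0.374% and 0.147%. The mESC level of Prph was 1.65% of that in N2a. It lay within the range of the 5 N2a markers in mESCs and above the NIH/3T3 level by a ratio of 2.56 (interval 1.56 to 4.33), although the BC1 sequences of the pair overlapped.

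Map1b, which acts early in axon outgrowth, was the member above 100 CPM in all 3 lines. Its level was 1560 CPM in N2a (interval 1542 to 1578, 28010 UMIs). NIH/3T3 followed at 304 CPM (interval 294 to 315, 3561 UMIs), and mESCs had 113 CPM (interval 107 to 119, 1388 UMIs). By BC1 sequence it ran from 1353 to 1774 CPM in N2a, from 208 to 435 CPM in NIH/3T3 and from 64.8 to 156 CPM in mESCs. The 3 ranges did not overlap. N2a was higher than NIH/3T3 by a ratio of 5.12 (interval 4.95 to 5.31), and NIH/3T3 higher than mESCs by 2.702 (interval 2.54 to 2.88). Map1b UMIs were present in 98.1% of N2a cells, with up to 124 in a cell, in 69.9% of NIH/3T3 cells and in 38.8% of mESCs. After thinning the shares were 75.1%, 27.2% and 11.8%. The level in NIH/3T3 was 19.5% of that in N2a, above the 4.00% of Tubb3, the highest of the 5 N2a markers there.

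Map2, the dendritic microtubule-associated protein, was nearly confined to N2a among the 3 lines. Map2 was at 119 CPM in N2a (interval 114 to 124, 2131 UMIs), 1.87 CPM in mESCs (23 UMIs) and 0.171 CPM in NIH/3T3 (2 UMIs). The BC1 sequences of N2a ran from 79.0 to 191 CPM with a median of 112, and 13 of the 32 in mESCs were at 0. The ratio of N2a to mESCs was 63.6 (interval 42.3 to 101). The mESC level was 1.57% of that in N2a, within the range of the 5 N2a markers there, and was 10.9 times that in NIH/3T3 (interval 2.698 to 95.5).

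Mapt, which encodes the axonal protein tau, differed least between N2a and mESCs. Mapt was at 93.1 CPM in N2a (interval 88.7 to 97.6, 1671 UMIs) and 56.0 CPM in mESCs (interval 51.9 to 60.3, 690 UMIs). It was at 5.30 CPM in NIH/3T3 (62 UMIs). The BC1 sequences ran from 62.6 to 130 CPM in N2a and from 27.7 to 82.3 CPM in mESCs, so the lines overlapped on this technical spread. The ratio was 1.66 (interval 1.52 to 1.82), below the 2 that the rule asked for. The thinned shares were 8.14% of N2a cells (interval 7.06% to 9.32%) and 5.71% of mESCs (interval 4.76% to 6.78%), and 0.687% of NIH/3T3 cells. The level in NIH/3T3 was 5.70% of that in N2a, above the 5 N2a markers of at least 50 CPM but below Gata2, a weaker N2a marker at 38.6 CPM in N2a and 4.19 CPM in NIH/3T3.

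Dcx, the doublecortin of migrating neuroblasts, gave a single UMI in 6497 cells. It was at 0 in N2a and mESCs, where the floor of 3 counts was 0.167 and 0.243 CPM, and at 0.0855 CPM in NIH/3T3 (1 UMI). Dcx was therefore not detectable in N2a at this depth, whereas Map2 and Mapt were. Gap43 was at 177 CPM in N2a (interval 171 to 183, 3177 UMIs), with 121 to 230 CPM by BC1 sequence. It was at 4.63 CPM in mESCs (57 UMIs) and 0.684 CPM in NIH/3T3 (8 UMIs). The ratio of N2a to mESCs was 38.3 (interval 29.4 to 50.6). In mESCs the BC1 sequences of Gap43 ran from 0 to 21.3 CPM with a median of 3.53, and 1 mESC held 5 of the 57 UMIs. The mESC level was 2.61% of that in N2a, within the range of the 5 N2a markers there, and was 6.76 times that in NIH/3T3 (interval 3.21 to 16.4).

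Levels in mESCs were not a fixed share of those in N2a. As a percent of the N2a level they were 60.2% for Mapt, 34.7% for Nefh, 11.4% for Ina, 7.22% for Map1b, 2.61% for Gap43, 1.65% for Prph and 1.57% for Map2. The intervals of the ratios for Mapt, Nefh and Ina did not overlap each other. Mapt and Nefh lay above all 5 N2a markers of at least 50 CPM, while the others lay within their range in mESCs. The upper end of that range was Tubb3 alone, at 16.4%, and the median was 2.43%. Ina, Map1b and Gap43 lay above that median, and Prph and Map2 below it. In NIH/3T3 the shares were 19.5% for Map1b, 5.70% for Mapt and 0.144% to 0.645% for Nefh, Ina, Prph, Map2 and Gap43. The last range lies within that of the same 5 markers in NIH/3T3. Whether NIH/3T3 cells transcribe these members at a low level was not tested.

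**Figure D2:**
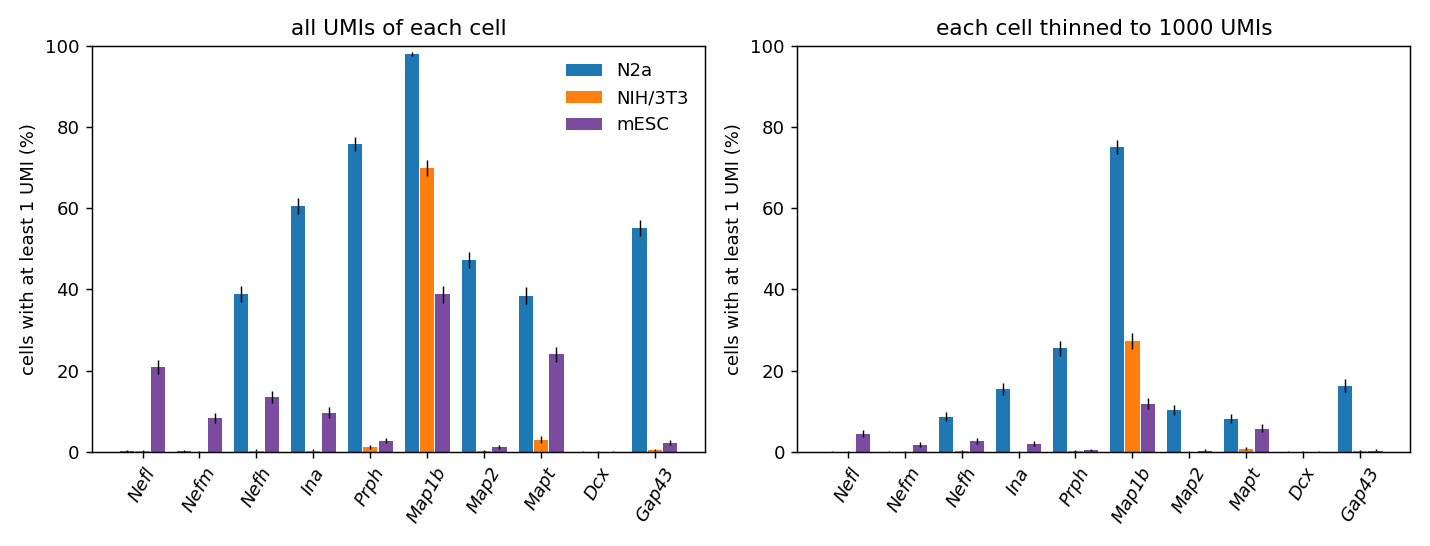
Share of cells with at least 1 UMI of each gene in percent, with all UMIs (left) and after thinning each cell to 1000 UMIs (right); bars are lines and error bars are 95% exact binomial intervals. Map1b reaches 98.1% of N2a cells before and 75.1% after thinning, and Nefl and Nefm have visible bars in mESCs alone.

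Within N2a, most members were spread over cells rather than held by a few. The share of N2a cells with a UMI was 75.9% for Prph, 60.5% for Ina, 55.1% for Gap43, 47.2% for Map2, 38.8% for Nefh and 38.5% for Mapt. The shares that the same UMIs would give if spread by depth alone were 78.2%, 63.5%, 63.8%, 52.2%, 42.0% and 45.3%. The gap was widest for Gap43 and Mapt, whose UMIs were thus held by fewer cells than depth alone would give. The Fano factor after thinning is 1 for counts spread at random. It was 1.14 for Map1b, 1.14 for Gap43, 1.14 for Mapt and 1.10 for Prph, against 1.01 for Nefh. The mean thinned counts per cell were 1.51, 0.190, 0.0913, 0.307 and 0.0908 in that order. Because the Fano factor depends on the mean count, equal values do not mean an equal spread relative to the level. The 10% of N2a cells with the most UMIs of a gene held 32.1% of the Map1b UMIs and 51.8% of the Mapt UMIs, a measure that also moves with the level of the gene.

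**Figure D3:**
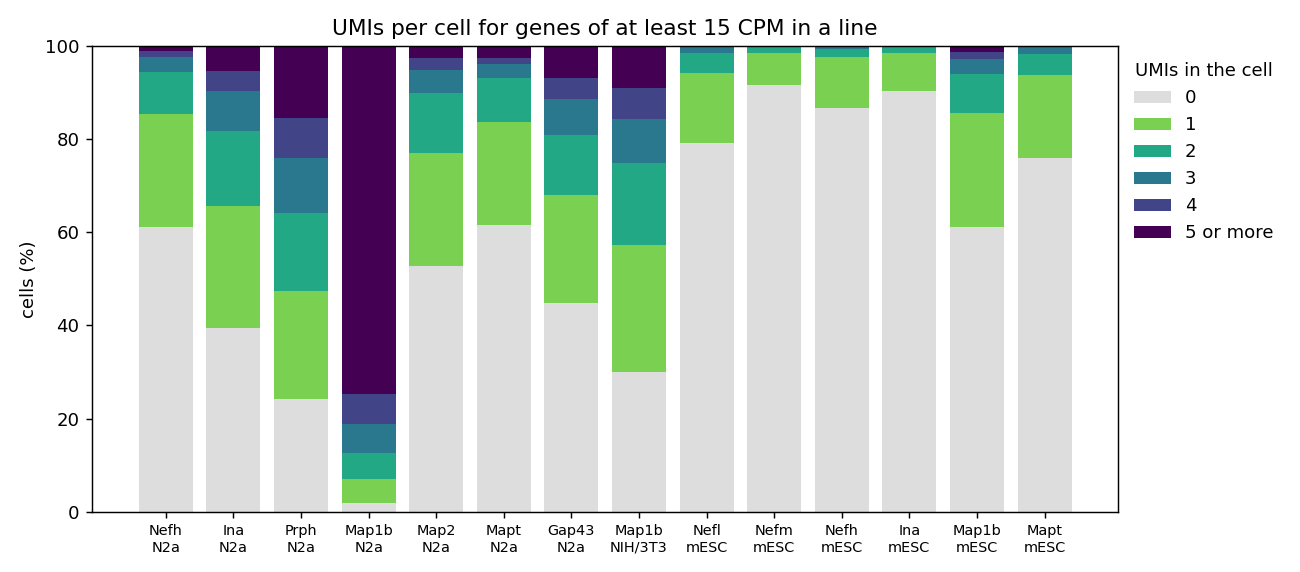
Percent of cells by the number of UMIs of a gene, for members of at least 15 CPM in a line. Grey is 0 UMIs, which covers 24.1% of N2a cells for Prph and 79.2% of mESCs for Nefl, and Map1b in N2a is the column mostly at 5 or more UMIs.

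Counting the 7 members above 50 CPM in N2a (Nefh, Ina, Prph, Map1b, Map2, Mapt and Gap43), 195 N2a cells (8.39%) held UMIs of all 7 and 10 cells (0.430%) of none. The most frequent number was 4, in 487 cells (21.0%). Of Nefl, Nefm, Nefh and Ina, 1295 mESCs (60.6%) held none, 628 held 1, 160 held 2, 50 held 3 and 4 held all. Pairs of members in thinned N2a cells had Pearson correlations from -0.036 (Ina with Prph) to 0.044 (Map1b with Gap43) over 2323 cells, values too weak to read in such sparse counts. Ina and Prph were found together in 3.14% of thinned N2a cells, against 3.93% if they were independent.

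Levels of the members were also compared by the G2/M transcripts of a cell, from genes of the phase before and during division. Cells of each line were ranked by the share of their UMIs in 22 G2/M genes, and the upper and lower 774 N2a cells were compared. Ina was at 144 CPM in the upper and 206 CPM in the lower N2a cells, a ratio of 0.696 (interval 0.638 to 0.759), and was lower in 29 of the 32 BC1 sequences. Mapt was at 89.9 against 109 CPM, a ratio of 0.825 (interval 0.735 to 0.925), and was lower in 23 of 32. Nefh was at 78.7 against 86.5 CPM, a ratio of 0.909 (interval 0.802 to 1.03), and was lower in 21 of 32. Prph had a ratio of 0.999 (interval 0.936 to 1.07), Map1b 0.986 (interval 0.959 to 1.01) and Map2 1.02 (interval 0.922 to 1.14). Gap43 was at 186 against 171 CPM, a ratio of 1.09 (interval 1.00 to 1.19), and was higher in 18 of 32. Whether these ratios differ between members was not tested. The upper cells were also deeper, with a median of 6920 UMIs against 5643.

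In the other lines, Map1b was the member whose intervals did not include 1. It was at 285 CPM in the upper and 330 CPM in the lower 679 NIH/3T3 cells, a ratio of 0.865 (interval 0.798 to 0.938), lower in 23 of 32 BC1 sequences. In mESCs Map1b was at 119.9 CPM in the upper and 100.3 CPM in the lower 712 cells, a ratio of 1.20 (interval 1.04 to 1.37), but higher in only 17 of 32. Ina in mESCs had a ratio of 0.882 (interval 0.646 to 1.21), which covers both the N2a value and 1. Nefl had a ratio of 1.01 (interval 0.828 to 1.23) and Mapt 1.02 (interval 0.839 to 1.23) there. The groups were not alike between lines. The G2/M genes held 0.575% of UMIs in the upper and 0.0861% in the lower N2a cells. These shares were 0.928% and 0.118% in NIH/3T3, and 0.795% and 0.303% in mESCs. Ratios of different lines are therefore not a like comparison.

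**Figure D4:**
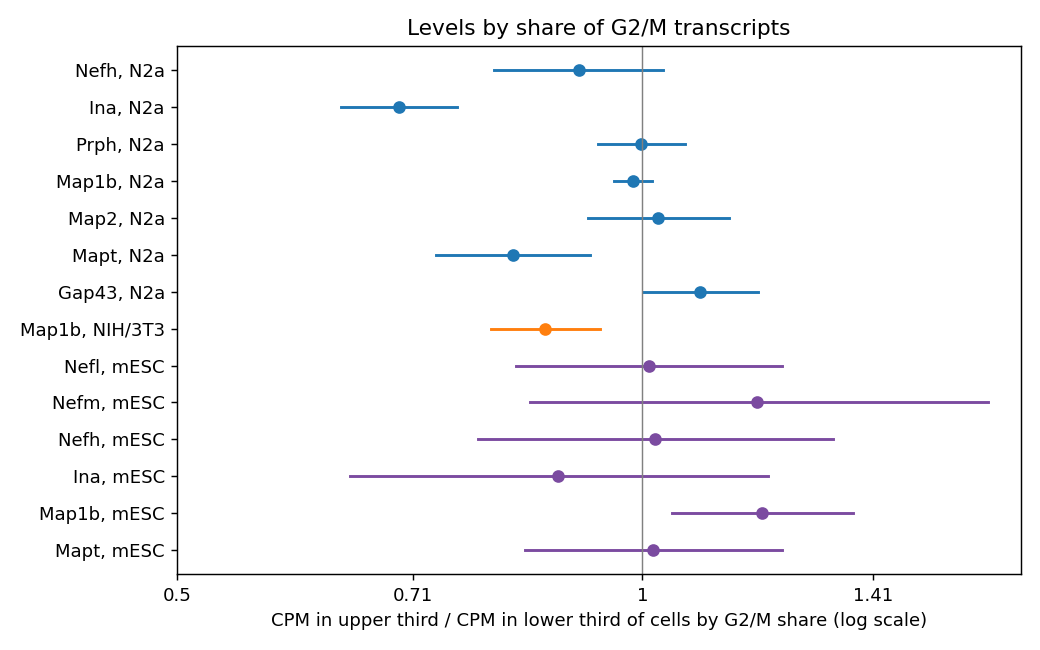
Ratio of the CPM in the upper to that in the lower group of cells ranked by G2/M share, on a log axis, with the 95% interval from the counts; colors are lines. Of the pairs of gene and line shown, all of at least 15 CPM, Ina in N2a lies farthest from 1, at 0.696, and the mESC intervals are wide.

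Genes with a pattern like that of each member were sought over the 96 BC1 sequences, as the Pearson correlation of log2(CPM + 1) among 6371 or 6372 genes of at least 50 CPM in a line. The BC1 sequences of a line share a sample, so these values mostly reflect the line. For Nefl the closest included Car2 (0.981) and Triml1 (0.980), and for Nefm they included Nup62cl (0.979) and Triml1 (0.973). For Nefh they were Frmd4b (0.975), Sfmbt2 and Pcm1 (both 0.974), and for Ina they were Gfra1 (0.976), the kinesin heavy chain gene Kif5c (0.974) and Sv2c (0.970). Prph was closest to St8sia3, Stac and Igfbp5 (all 0.943), and Map1b to B3galt1 (0.978), Acer3 (0.974) and Ldah (0.973). Map2 was closest to Cnr1 and Ggt7 (both 0.961) and Dkk1 (0.960), Mapt to Ptprj (0.936), Sall3 (0.932) and Cadm1 (0.931), and Gap43 to Gpc6 (0.953), Slc8a1 (0.951) and Cox7b2 (0.944).

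Other intermediate filaments divided among the lines. Of 12 genes, 8 were compared, and the rule called mESCs for 3, NIH/3T3 for 2 and N2a for 1. Beside this and the following lists, the shares of all 13000 genes compared were 13.0%, 10.5% and 11.3% in that order. The rule called no line for 8474 of the 13000. Synm, which encodes the linker filament synemin, was at 31.2 CPM in N2a and 0.598 CPM in NIH/3T3. Vim, the vimentin gene, was at 1888 CPM in NIH/3T3, 440 CPM in N2a and 82.4 CPM in mESCs, and Lmna, which encodes lamins A and C, followed the same order at 488, 81.5 and 18.7 CPM. Lmnb1, the lamin B1 gene, was highest in mESCs at 362 CPM, with Des and Krt8 at 8.52 and 9.17 CPM there. Nes, the nestin gene of neural progenitors, was at 17.0 CPM in N2a, 23.1 CPM in mESCs and 0.171 CPM in NIH/3T3 and met the rule in no line.

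Among 12 genes of cytolinkers and filament turnover, the rule called NIH/3T3 for 4, mESCs for 2 and N2a for 1. Bag3, a co-chaperone, was at 111 CPM in N2a. The small heat shock genes went to different lines, with Cryab at 192 CPM in NIH/3T3 and 8.19 CPM in N2a, and Hspb1 at 452 CPM in mESCs and 2.28 CPM in N2a. Plec, the plectin gene, was at 301 CPM in NIH/3T3, and Eppk1 and Fbxo7 were the other genes called there. Dst and Macf1, which encode spectraplakins that join filaments to microtubules, were at 1090 and 1187 CPM in mESCs and met the rule in no line. Usp9x, a deubiquitinase gene, was called in mESCs at 1077 CPM.

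Of 23 other microtubule-associated protein genes, 21 were compared, with N2a called for 4, mESCs for 3 and NIH/3T3 for 1. The N2a genes were Map7d2 (172 CPM), Map1a (80.1 CPM), Map9 (55.1 CPM) and Tppp3 (31.6 CPM). Map7, a kinesin-recruiting relative of Map7d2, was at 249 CPM in mESCs and 13.5 CPM in N2a, and Map4, the widespread non-neuronal relative of Map2 and tau, was at 435 CPM in mESCs, 216 CPM in NIH/3T3 and 97.5 CPM in N2a. Camsap3 was called in mESCs at 10.5 CPM and Clip1 in NIH/3T3 at 138 CPM. Clasp1, whose product anchors microtubule ends, was at 265 CPM in N2a and was not called. Over the genes compared in the list, the median log2 ratio of N2a to mESCs (of CPM + 1) was 0.79, against 0.03 over all genes compared. The median log2 ratio of N2a to NIH/3T3 was 0.54, against 0.04.

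Of 19 genes for kinases and phosphatases of tau and neurofilaments, 18 were compared and 16 met the rule in no line. Over all genes compared, 8474 of 13000 met it in no line. Gsk3b, a main tau kinase, was at 359, 192 and 395 CPM across N2a, NIH/3T3 and mESCs, and Ppp2ca, the catalytic subunit of the main tau phosphatase, was at 244, 179.5 and 216 CPM. Ppp3ca, a catalytic subunit of calcineurin, was at 591, 738 and 142 CPM in the same order. Mapk10, the neuronal JNK gene, was the gene called in N2a, at 97.7 CPM against 1.20 and 1.87 CPM in NIH/3T3 and mESCs. Mark1 was called in mESCs, at 13.6 CPM.

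Growth cone and collapsin response genes were called in N2a for 5 of the 15 compared of 16, and in NIH/3T3 and mESCs for 0. Crmp1 was at 151 CPM in N2a against 0.342 and 1.38 CPM in NIH/3T3 and mESCs. Dpysl3 was at 437 CPM, Uchl1 at 199 CPM, Dpysl2 at 125 CPM and Gprin1 at 17.2 CPM in N2a. Enah, an actin regulator of growth cones, was at 723 CPM in N2a, 655 CPM in mESCs and 53.1 CPM in NIH/3T3 and met the rule in no line. Neither Rtn4, the Nogo gene, at 691 CPM in NIH/3T3, nor Cald1, the caldesmon gene, at 463 CPM in N2a, met it. The median log2 ratio of N2a to NIH/3T3 was 1.09 for the genes compared, against 0.04 over all genes compared. To mESCs it was 0.69, against 0.03. In the same order these medians were -0.67 and -0.40 for other intermediate filaments, and -0.27 and -0.26 for cytolinkers and filament turnover. They were 0.05 and 0.05 for kinases and phosphatases, 0.97 and 0.96 for membrane skeleton and adhesion, and 0.27 and 0.69 for transport motors.

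Of 17 genes of the axonal membrane skeleton and adhesion, 12 were compared, and the rule called N2a for 4 and mESCs for 2. Ank3, which encodes the ankyrin of the axon initial segment, was at 1356 CPM in N2a but 36.8 CPM in mESCs, with NIH/3T3 between them at 354 CPM. Cadm1 (848 CPM), Ncam1 (407 CPM) and L1cam (105 CPM), all adhesion genes, were the others called in N2a. Nfasc, the partner of ankyrin at the initial segment, was at 7.39 CPM in mESCs and 0.780 CPM in N2a, and Add1 was at 153 CPM in mESCs. Sptbn1, a widespread beta-spectrin gene, was at 673 CPM in N2a and 528 CPM in mESCs and was not called. Of 19 axonal transport motor genes, 16 were compared, and the neuronal kinesin-1 genes Kif5c (466 CPM, against 0.769 and 35.4 CPM in NIH/3T3 and mESCs) and Kif5a (53.0 CPM) were called in N2a. Kif5b, the widespread kinesin-1 gene, was at 406, 311 and 485 CPM in N2a, NIH/3T3 and mESCs and met the rule in no line. Kif21a was called in NIH/3T3, at 160 CPM. Pafah1b1, the dynein regulator Lis1, was at 363, 374 and 393 CPM in the same order and was not called.

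**Figure D5:**
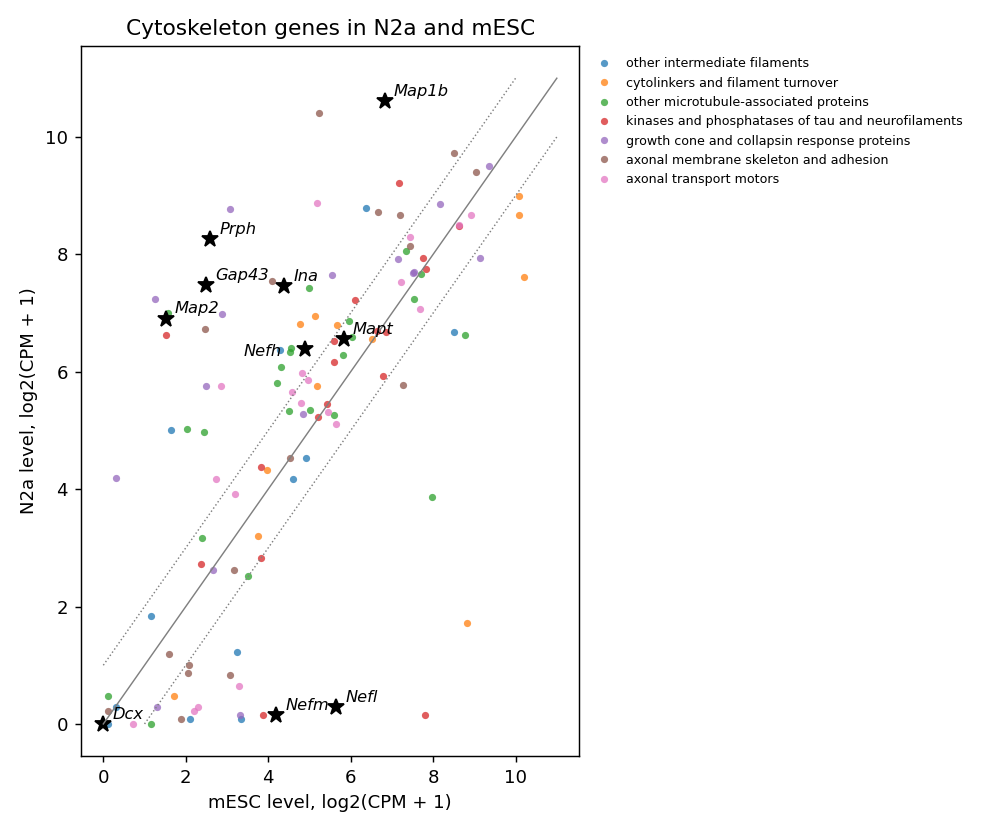
Level in N2a against level in mESCs, both as log2(CPM + 1), for the 10 members (stars, named) and the genes of 7 cytoskeleton lists (points, colored by list). The solid line marks equal levels and the dotted lines a CPM + 1 of 2 times the other line's; Map2, Prph, Gap43 and Map1b lie far above it and Nefl and Nefm far below it.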

How the data were processed

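RNA was measured in single cells of N2a, NIH/3T3 and mESCs, with 1 library for all lines. The authors split the reads by BC1, trimmed the template switching oligo, and aligned and counted reads with STARsolo on GRCm39 (GENCODE M30), and deposited raw UMI counts of each gene at each barcode, with no filter on cells. The pooled matrix came from the same reads and served as an alternative. The strand setting and the treatment of intronic reads are not given in the sources used here, and both could change counts of overlapping and long genes.

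The filter on cells was that of the methods and left out 7, 15 and 18 barcodes for mitochondrial share in N2a, NIH/3T3 and mESCs. The matrices held 20662884, 13505027 and 13875356 UMIs, of which the cells held 17955221, 11697865 and 12322098. Doublets were not called, and cells without the 5% deepest were an alternative. Shares were thinned to 1000 UMIs with a fixed seed. Ratios of levels used exact conditional intervals. Positions came from GENCODE M39, where 32953 of 33565 identifiers were found. The tools were numpy 2.4.6, pandas 2.3.3, scipy 1.17.1 and matplotlib 3.10.9 under Python 3.11.15, and the steps were tested on simulated data.

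The members and the 13 gene lists were chosen with earlier results of these data known. All 10 members are named, and from each cytoskeleton list the 3 genes with the highest CPM in any line and the 2 whose CPM + 1 exceeded the next line's most, with Vim, Nes and Lmna. For each member of at least 5 CPM, the 3 genes most like it are named, except that 1 such gene of Nefl and of Nefm is not reported here. Other genes that account for a count, Dyrk1a and the marker genes quoted were chosen after their values were seen.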

Additional observations from a re-analysis of the deposited data

How the results depend on the processing

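With at least 4-fold in place of 2-fold, N2a was called for 785 genes, NIH/3T3 for 692 and mESCs for 1056, against 1467, 1369 and 1690. These lower numbers follow from the stricter rule. Of the members, Nefh lost its N2a call and 5 remained, and the 2 mESC calls were kept. A pseudocount of 0.1 CPM, a limit of 1 CPM and STARsolo's default cell calling changed no count of genes or members by more than 1.5 times. The 72 log2 ratios under 8 alternatives kept their direction and side of the rule. Levels of at least 5 CPM moved by 0.907 to 1.19 times under other cell filters, the pooled matrix and equal weight of cells, and by 1.11 to 1.14 times without mitochondrial and ribosomal protein genes in the denominator. Another random thinning gave 10.3% for Map1b in mESCs, against 11.8%. It moved low shares by 1.5 times or more: Prph to 0.655% in mESCs and 0.295% in NIH/3T3, Gap43 to 0.468% in mESCs and 0.0982% in NIH/3T3, and Nefh in NIH/3T3 and Nefl and Nefm in N2a to 0. Thinning to 2000 UMIs raised shares by construction.

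With 1 library per line, no value has a check by replicates. Levels under the count floor, such as Dcx in N2a, are limited by depth. Fewer cells with a transcript and less of it per cell cannot be told apart where most cells hold 0 or 1 UMI.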
